A study of Mus musculus with 14 samples.

Results

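The genes described here are 10 members of the AP-1 and immediate early group: Fos, Fosb, Fosl1, Fosl2, Jun, Junb, Jund, Egr1, Atf3 and Ier3. They were taken by gene name from the 35275 genes in the deposited expression table. The group was chosen with earlier results of these data known. All 10 passed the filter on low values in every comparison and were tested in each. FAK, encoded by Ptk2, is a cytoplasmic tyrosine kinase that passes signals from integrins and growth factor receptors into the cell.

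AP-1 is a transcription factor made of a pair of leucine zipper proteins, usually 1 of the Fos family (Fos, Fosb, Fosl1, Fosl2) with 1 of the Jun family (Jun, Junb, Jund). Jun proteins can also pair with each other or with ATF proteins such as Atf3, which mostly represses transcription. Many of these genes are immediate early genes, whose transcription starts within minutes of a growth factor, adhesion or stress signal without new protein synthesis, through the MAP kinases and serum response factor. Egr1 is a zinc finger transcription factor and Ier3 a small protein linked to cell survival, both induced in the same way. In carcinoma cells the Fos-related gene Fosl1 is known for its ties to migration and to RAS and ERK signaling.

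Poly(A)-selected RNA was sequenced from 5 mouse lines grown as tumorspheres, floating cell clusters, for 5 days in PromoCell XF medium. KMF cells (n = 3) are ovarian cancer cells obtained by passing ID8 cells, a spontaneously immortalized C57Bl6 ovarian epithelial line, through mice. FAK KO cells (n = 3) are the single KMF clone KT13, in which FAK was inactivated. The other 3 lines were made from KT13: FAK-WT (n = 3) carries lentiviral GFP-FAK, FAK-R454 (n = 2) carries GFP-FAK with the kinase-inactivating R454 change, and β-catenin ΔGSK (n = 3) carries an active β-catenin that escapes GSK3 phosphorylation, from a retroviral vector. The GFP-FAK vectors are driven by a CMV promoter, and the transduced cells were enriched by flow cytometry. All reconstituted lines therefore share the KT13 origin, and a change that arose in that clone and the loss of FAK cannot be told apart in the comparison of KMF with FAK KO. No sample is labelled as KT13 with an empty vector. In comparisons of the reconstituted lines with FAK KO, the introduced gene thus cannot be told apart from transduction, drug selection and sorting. The study's methods describe 3 FAK-R454 samples, and 2 were analysed here.

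Libraries held 25390558 to 35289859 fragments on genes. From highest to lowest, Ptk2 was 62.4 ± 4.42 FPKM in FAK-R454 (SD, n = 2), 43.4 ± 1.76 in FAK-WT, 24.3 ± 0.421 in KMF, 19.0 ± 1.45 in FAK KO and 15.5 ± 0.401 in β-catenin ΔGSK (SD, n = 3 each). The Ptk2 value counts the whole gene and does not separate edited alleles from re-expressed GFP-FAK, so it does not check the knockout itself. The epithelial and mesothelial markers Krt8, Krt18, Krt19, Wt1 and Msln were expressed in all lines. Krt7, Muc16, Pax8, Cdh1 and Epcam stayed under 1 FPKM in every sample. On average the 13 markers of this kind summed to 1740 FPKM in FAK-WT and 1160 in FAK KO, with the other lines between. Krt8 averaged 569 FPKM in FAK-WT, 317 in FAK KO and 181 in β-catenin ΔGSK. Wt1 was 227 FPKM in β-catenin ΔGSK and 97.8 in FAK KO, and Upk3b 31.6 in FAK-R454 and 4.03 in FAK KO. Of the leukocyte markers, Ptprc did not exceed 0.00759 FPKM and Cd3e was at 0, while Cd68 ranged from 1.05 to 12.3 FPKM and averaged 8.62 in FAK-WT, 4.29 in FAK-R454, 3.08 in KMF, 2.99 in FAK KO and 1.32 in the β-catenin line. The summed level of 6 fibroblast markers averaged 170.0 FPKM in FAK-WT, 152 in FAK-R454, 111 in FAK KO, 89.4 in KMF and 39.9 in β-catenin ΔGSK. Col1a2 and Pdgfrb were near 0. Dcn alone set FAK KO above KMF in this sum, with means of 99.0 and 33.1 FPKM. The other expressed markers were lower in FAK KO than in KMF: Col3a1 (7.32 against 44.8), Pdgfra (3.03 against 9.06) and Col1a1 (1.33 against 2.46). The sum of 4 endothelial markers, nearly all of it Tek, was 29.8 FPKM in KMF, 18.4 in FAK KO and 7.05 in β-catenin ΔGSK. Kdr and Cdh5 were near 0. The part of these differences in the results was not tested, and in bulk samples fewer cells of a type and less RNA per cell cannot be told apart.

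Promoter sequences show the regulatory letters next to which the expression values can be read. For 8 of the 10 members a RefSeq promoter on GRCm38.p6 was at hand, and the 250 bases before the transcription start were searched for short motifs on both strands, with TATAAA on the gene's strand alone. The AP-1 site TGACTCA was in 4.46% of 32851 promoter windows of that length, the cyclic AMP response element TGACGTCA in 1.55%, its shorter form TGACG in 17.8%, the Jun promoter's AP-1-like site TGACATCA in 2.93%, the CArG box of serum response factor in 1.47%, the EGR site GCGNGGGCG in 4.7%, the TCF/LEF site CTTTGATC in 0.801%, TATAAA in 7.59% and CCAAT in 33.8%. TGACG also forms the start of TGACGTCA and is counted within it. The 5 members below are shown because they are the AP-1 subunits and the survival gene with a match in bases that no annotated exon covers. Each is written 5′ to 3′ on the gene's own strand, with the matches in capitals.
Fos (chr12:85473640-85473889, plus strand): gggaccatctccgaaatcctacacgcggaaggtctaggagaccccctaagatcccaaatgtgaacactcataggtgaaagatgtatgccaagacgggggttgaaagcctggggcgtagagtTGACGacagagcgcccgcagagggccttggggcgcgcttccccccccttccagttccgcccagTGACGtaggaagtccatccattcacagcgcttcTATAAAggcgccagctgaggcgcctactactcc
Fosb (chr7:19310052-19310295, minus strand): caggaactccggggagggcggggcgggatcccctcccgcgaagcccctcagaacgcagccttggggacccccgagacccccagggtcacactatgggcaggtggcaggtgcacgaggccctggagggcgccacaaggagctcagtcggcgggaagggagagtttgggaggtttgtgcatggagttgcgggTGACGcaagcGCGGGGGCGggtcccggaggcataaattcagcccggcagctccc
Jun (chr4:95052223-95052472, minus strand): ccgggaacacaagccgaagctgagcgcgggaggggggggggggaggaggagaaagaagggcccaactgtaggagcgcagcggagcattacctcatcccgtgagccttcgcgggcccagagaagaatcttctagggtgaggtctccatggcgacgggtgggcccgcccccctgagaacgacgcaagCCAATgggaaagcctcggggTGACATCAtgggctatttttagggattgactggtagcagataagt
Junb (chr8:84978749-84978998, minus strand): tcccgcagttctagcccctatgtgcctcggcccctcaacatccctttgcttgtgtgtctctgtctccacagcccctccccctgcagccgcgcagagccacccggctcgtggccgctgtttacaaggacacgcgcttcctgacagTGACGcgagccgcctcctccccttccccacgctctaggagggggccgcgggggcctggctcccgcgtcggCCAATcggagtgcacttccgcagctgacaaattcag
Ier3 (chr17:35821463-35821683, plus strand): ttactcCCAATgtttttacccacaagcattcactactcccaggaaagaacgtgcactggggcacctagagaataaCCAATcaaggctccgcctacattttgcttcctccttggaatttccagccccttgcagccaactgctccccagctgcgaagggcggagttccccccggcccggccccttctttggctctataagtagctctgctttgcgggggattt

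In the Fos window TGACG began 129 and 66 bases before the start, and TATAAA began 33 bases before it. Jun held TGACATCA from 45 to 38 bases before its start, the element known to bind Jun and ATF dimers in this promoter, and CCAAT from 65 to 61. Fosb had TGACG 60 bases and the EGR site GCGGGGGCG 50 bases before the start, and Junb had TGACG at 106 and CCAAT at 36. Ier3 carried CCAAT at 244 and 175. These distances are counted from the RefSeq start, and the window bases nearest to it that an annotated exon covers, 6 for Fosb and 29 for Ier3, were left out of the printed stretches. The Fosl2 window, part of which is annotated as exon, also held GCGGGGGCG, 79 bases before the start. In the Atf3 window CGTCA, which is TGACG on the other strand, lay 7 to 3 bases before the start. No motif of the set was found in the Jund window, which says only that these letters are not there. A match describes the sequence and is neither a bound site nor a cause of the values that follow.

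Levels are given as FPKM, fragments per kilobase of gene and per unit of library depth, which corrects for gene length so that genes can be ranked. Ier3 had the highest level of the group in every line (means of 185.9 to 342 FPKM), followed by Jund and then by Junb, Jun and Fosl2 in an order that differed among lines. Means were 16.2 to 28.7 FPKM for Fosl1 and 2.88 to 14.9 for Egr1, and Fos, Atf3 and Fosb had means between 1.08 and 6.85. The widest spread between lines was that of Egr1, whose mean was 5.16 times higher in KMF than in β-catenin ΔGSK, and the next was that of Fos, 3.81 times higher in β-catenin ΔGSK than in FAK-R454. Jund had the narrowest, 1.14 times. The low genes rest on few fragments, 96 to 432 a sample for Fos, 101 to 276 for Fosb and 95 to 196 for Atf3. A fold change is the difference of log2(FPKM + 0.1), which understates the change of low genes, and passing means an adjusted p under 0.05 over all genes tested.

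**Figure D1:**
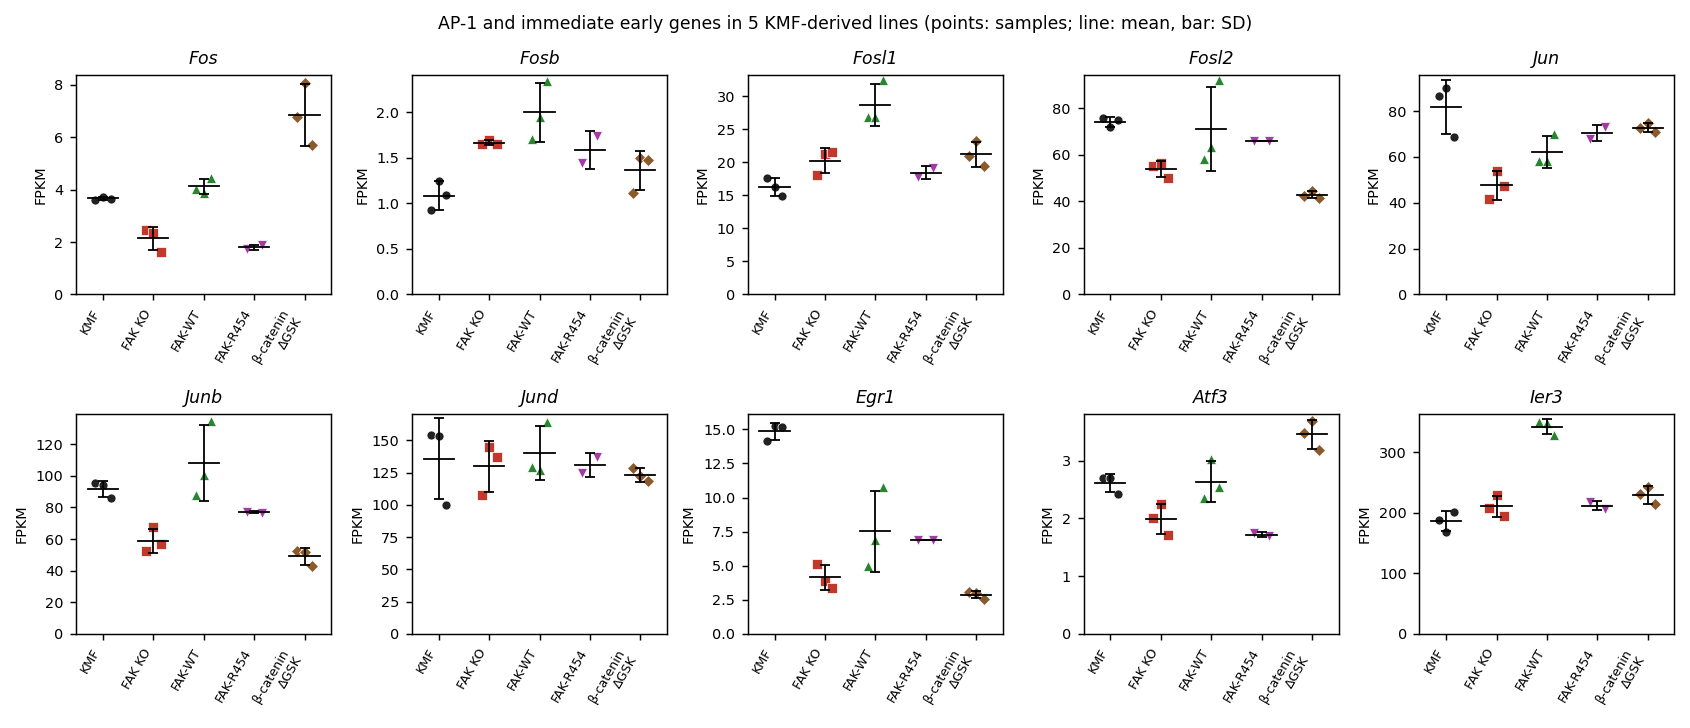
FPKM of the 10 genes (linear axes from 0) in the 5 lines: each point is a sample, the horizontal line the mean and the bar the SD (n = 3, n = 2 for FAK-R454). Egr1 is highest in the 3 KMF samples, Fos and Atf3 in the 3 β-catenin ΔGSK samples and Ier3 in the 3 FAK-WT samples.

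Fos (ENSMUSG00000021250, chr12:85473890-85477273, plus strand) encodes the founding subunit of AP-1. It measured 2.44, 2.35 and 1.63 FPKM in the FAK KO samples and 1.73 and 1.87 in the FAK-R454 samples. It was 4.02, 3.89 and 4.46 FPKM in FAK-WT, 3.62, 3.74 and 3.66 in KMF and 6.77, 8.07 and 5.71 in β-catenin ΔGSK. FAK KO and FAK-R454 were the low pair of lines and overlapped, and every sample of the other lines lay above every sample of these. Relative to FAK KO, Fos rose in β-catenin ΔGSK by 1.64 on the log2 scale (SE 0.18, adjusted p = 7.75e-05), in FAK-WT by 0.93 (SE 0.16, adjusted p = 0.00284) and in KMF by 0.77 (SE 0.15, adjusted p = 0.00298). FAK-R454 differed from FAK KO by -0.22 (95% interval -0.65 to 0.21, adjusted p = 0.427), which did not pass. FAK-WT was 1.15 higher than FAK-R454 (SE 0.10, adjusted p = 0.00452). In the order of the lines, β-catenin ΔGSK stood above FAK-WT (adjusted p = 0.00232), while FAK-WT over KMF did not pass (adjusted p = 0.143) although their samples did not overlap. Fos is among the genes the study selected on these samples, so its direction here is not independent evidence. The paper also reports quantitative PCR on separate samples, in which FAK-WT re-expression raised Fos by at least the paper's fold cutoff. The rise of 0.93 found here in FAK-WT over FAK KO was less than 2-fold.

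Fosb (ENSMUSG00000003545, chr7:19302721-19310045, minus strand), the subunit closest to Fos in domain layout, was the lowest member on average in each of the 5 lines. Its values were 1.44 and 1.73 FPKM in FAK-R454, 1.66, 1.70 and 1.65 in FAK KO and 1.71, 1.95 and 2.34 in FAK-WT. They were 1.12, 1.50 and 1.48 FPKM in β-catenin ΔGSK and 0.927, 1.24 and 1.09 in KMF. The 3 KMF samples lay below all FAK KO, FAK-WT and FAK-R454 samples. Fosb fell in KMF relative to FAK KO by 0.58 on the log2 scale (SE 0.15, adjusted p = 0.00972). The changes over FAK KO of -0.28 in β-catenin ΔGSK (adjusted p = 0.136), -0.072 in FAK-R454 (adjusted p = 0.748) and 0.24 in FAK-WT (adjusted p = 0.209) did not pass, although FAK-WT and FAK KO samples did not overlap. No pair of neighbouring lines in the order of Fosb passed the test.

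Fosl1 (ENSMUSG00000024912, chr19:5447703-5455945, plus strand) encodes FRA-1, a Fos protein without the strong activating domain of Fos. FAK-WT samples measured 26.9, 26.9 and 32.4 FPKM and lay above every sample of the other lines. The values were 18.1, 21.2 and 21.6 FPKM in FAK KO, 20.9, 23.2 and 19.5 in β-catenin ΔGSK, 17.8 and 19.1 in FAK-R454 and 17.6, 16.2 and 14.9 in KMF. Fosl1 rose in FAK-WT by 0.50 over FAK KO (SE 0.10, adjusted p = 0.00601) and was 0.63 above FAK-R454 (SE 0.097, adjusted p = 0.0201). FAK-WT also stood above the next line, β-catenin ΔGSK (adjusted p = 0.00622), and the 4 lower lines did not pass against their neighbours in the order, although FAK-R454 and KMF samples did not overlap (adjusted p = 0.116). Fosl1 fell in KMF by 0.32 relative to FAK KO (SE 0.092, adjusted p = 0.019). Over the other genes of chromosome 19 the median change in KMF was -0.26, and with each sample centred on its chromosome medians the Fosl1 change was -0.068 (adjusted p = 0.593), so this call was lost. The part of chromosome-wide differences in the fall was not tested further.

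Fosl2 (ENSMUSG00000029135, chr5:32136472-32157831, plus strand) encodes FRA-2 and supplied most of the Fos family FPKM. It was 76.0, 71.9 and 75.1 FPKM in KMF, 65.9 and 66.0 in FAK-R454 and 55.5, 56.4 and 49.9 in FAK KO. FAK-WT samples were spread widely, at 58.3, 63.2 and 92.1 FPKM, and β-catenin ΔGSK samples were the lowest, at 42.5, 44.6 and 41.7. All KMF, FAK-WT and FAK-R454 samples were above all FAK KO samples, and all β-catenin ΔGSK samples were below them. The rise over FAK KO passed in KMF at 0.46 (SE 0.067, adjusted p = 0.000633) and in FAK-R454 at 0.29 (SE 0.071, adjusted p = 0.026). It did not in FAK-WT, at 0.37 (SE 0.15, adjusted p = 0.0822). As neighbours in the order, KMF and FAK-WT (adjusted p = 0.672) and FAK-WT and FAK-R454 (adjusted p = 0.804) did not pass. KMF was above FAK-R454 with no overlap of samples (FAK-R454 over KMF -0.17, adjusted p = 0.0344). The next steps down passed, from FAK-R454 to FAK KO (adjusted p = 0.026) and from FAK KO to β-catenin ΔGSK (adjusted p = 0.00363). The fall in β-catenin ΔGSK was -0.33 (SE 0.069, adjusted p = 0.00363), beside a median of -0.31 over the other genes of chromosome 5. Centred on the chromosome the value was -0.010 (adjusted p = 0.919).

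Jun (ENSMUSG00000052684, chr4:95049034-95052222, minus strand) encodes c-Jun, the partner through which Fos proteins bind AP-1 sites. FAK KO was the lowest line, at 41.5, 54.0 and 47.1 FPKM, and no sample of the other lines overlapped it. KMF samples held 86.5, 90.2 and 68.5 FPKM and β-catenin ΔGSK samples 72.5, 74.8 and 70.8. FAK-R454 samples were at 67.8 and 72.9 FPKM and FAK-WT samples at 58.3, 58.2 and 70.0. Jun rose in all 4 lines over FAK KO, by 0.78 in KMF (adjusted p = 0.00105), 0.62 in β-catenin ΔGSK (adjusted p = 0.000557), 0.57 in FAK-R454 (adjusted p = 0.00837) and 0.39 in FAK-WT (adjusted p = 0.0232), with SEs of 0.12, 0.093, 0.10 and 0.11. These 4 comparisons share the 3 FAK KO samples. Among the higher lines no neighbours in the order passed the test, and their samples overlapped, but of the more distant pairs FAK-WT was below β-catenin ΔGSK (β-catenin ΔGSK over FAK-WT 0.23, adjusted p = 0.0448, no overlap) and below KMF (FAK-WT over KMF -0.39, adjusted p = 0.0353). Jun overlaps the antisense gene Junos, which was at 1.02 to 3.8 FPKM, and the sources do not state that strand was used in counting.

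Junb (ENSMUSG00000052837, chr8:84976909-84978748, minus strand), a Jun protein that restrains c-Jun at some promoters, was 52.5, 67.4 and 56.6 FPKM in FAK KO and 52.3, 52.0 and 42.9 in β-catenin ΔGSK. It was 77.3 and 76.4 FPKM in FAK-R454, 95.2, 94.4 and 85.8 in KMF and 88.1, 101 and 135 in FAK-WT. FAK-WT, KMF and FAK-R454 samples were all above the FAK KO samples, and the third FAK-WT sample was the highest of the 14. Junb rose over FAK KO in FAK-WT by 0.86 (SE 0.15, adjusted p = 0.00377), in KMF by 0.65 (SE 0.096, adjusted p = 0.000711) and in FAK-R454 by 0.39 (SE 0.10, adjusted p = 0.0303). In β-catenin ΔGSK the value was -0.26 (SE 0.11, adjusted p = 0.0714). FAK-WT over KMF did not pass (adjusted p = 0.281), KMF stood above FAK-R454 (adjusted p = 0.0187), and FAK KO over β-catenin ΔGSK did not pass although their samples did not overlap.

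Jund (ENSMUSG00000071076, chr8:70697739-70700616, plus strand), the Jun gene known for steady expression, was the most abundant AP-1 gene in every line. The FAK KO samples held 108, 145 and 137 FPKM, FAK-WT 129, 127 and 164, FAK-R454 125 and 137, β-catenin ΔGSK 129, 122 and 118 and KMF 154, 154 and 99.5. The lines overlapped throughout, and the third KMF sample was the lowest of the 14. No comparison of Jund passed: the changes over FAK KO were 0.046 in KMF (95% interval -0.36 to 0.45), -0.066 in β-catenin ΔGSK (-0.31 to 0.18), 0.022 in FAK-R454 (-0.26 to 0.30) and 0.11 in FAK-WT (-0.19 to 0.41).

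Egr1 (ENSMUSG00000038418, chr18:34859823-34864984, plus strand) stood apart in KMF from all lines derived from KT13. KMF samples held 14.1, 15.3 and 15.2 FPKM. FAK-WT samples were at 4.94, 6.89 and 10.8 FPKM, FAK-R454 at 6.86 and 6.88, FAK KO at 5.15, 3.90 and 3.38 and β-catenin ΔGSK at 3.05, 3.01 and 2.58. No other sample reached the KMF range, and the first FAK-WT sample lay inside the FAK KO range. Egr1 was 1.84 higher in KMF than in FAK KO (SE 0.14, adjusted p = 1.49e-05), and KMF also stood above FAK-WT, the next line (adjusted p = 0.0126). The rises over FAK KO were 0.80 in FAK-WT (SE 0.26, adjusted p = 0.0389) and 0.74 in FAK-R454 (SE 0.16, adjusted p = 0.0164). The difference between these lines did not pass (0.060, 95% interval -0.66 to 0.78). β-catenin ΔGSK fell below FAK KO by 0.49 (SE 0.16, adjusted p = 0.0244). The other genes of chromosome 18 had a median change of -0.38 in KMF, -0.37 in β-catenin ΔGSK, -0.14 in FAK-R454 and -0.36 in FAK-WT. With chromosomes centred, Egr1 changed by -0.0056 in β-catenin ΔGSK (adjusted p = 0.975) and by 2.28 in KMF (adjusted p = 1.84e-06).

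Atf3 (ENSMUSG00000026628, chr1:191170296-191183340, minus strand), the stress-induced ATF protein, was highest in β-catenin ΔGSK. Its values were 3.48, 3.69 and 3.19 FPKM in β-catenin ΔGSK, 2.35, 3.02 and 2.54 in FAK-WT and 2.71, 2.69 and 2.43 in KMF. FAK KO samples held 2.01, 2.24 and 1.71 FPKM and FAK-R454 samples 1.74 and 1.69. β-catenin ΔGSK was above every other sample, and FAK KO and FAK-R454 overlapped at the bottom. Atf3 rose in β-catenin ΔGSK by 0.77 over FAK KO (SE 0.13, adjusted p = 0.00099) and in KMF by 0.38 (SE 0.13, adjusted p = 0.0323). FAK-WT, 0.39 above FAK KO (SE 0.14, adjusted p = 0.0593) and 0.58 above FAK-R454 (SE 0.13, adjusted p = 0.0545), did not pass in either comparison although no samples overlapped. β-catenin ΔGSK stood above FAK-WT (adjusted p = 0.0308) and FAK-WT over KMF did not pass (adjusted p = 0.957). In KMF the median over chromosome 1 was 0.19, and the chromosome-centred Atf3 change was 0.18 (adjusted p = 0.281), which ended that call.

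Ier3 (ENSMUSG00000003541, chr17:35821684-35822923, plus strand) was the most abundant member and set FAK-WT apart. FAK-WT samples held 350.2, 348 and 328 FPKM, and the highest sample of any other line held 243 FPKM. β-catenin ΔGSK samples measured 231, 243 and 214 FPKM and FAK KO samples 208, 229.5 and 194. FAK-R454 samples were at 217 and 206 FPKM and KMF samples at 189, 168 and 201. Ier3 rose in FAK-WT by 0.70 over FAK KO (SE 0.077, adjusted p = 0.000421) and was 0.69 higher than in FAK-R454 (SE 0.058, adjusted p = 0.0039). It also stood above β-catenin ΔGSK, the next line (adjusted p = 0.00024). FAK-R454 differed from FAK KO by 0.012 (95% interval -0.17 to 0.20), β-catenin ΔGSK by 0.12 (-0.058 to 0.31) and KMF by -0.18 (-0.38 to 0.023), none of which passed. The median over the other genes of chromosome 17 was 0.16 in FAK-WT over FAK KO, and centred on it the Ier3 rise was 0.60 (adjusted p = 0.00114).

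Re-expression of FAK was examined by comparing FAK-WT with FAK KO. Of the 10 genes, 6 rose in FAK-WT (Fos, Fosl1, Jun, Junb, Egr1 and Ier3) and 0 fell, while 15.6% of all 11841 genes tested were higher and 25.2% lower. The median change of the 10 was 0.45 and that of all genes tested -0.076. The rises were largest for Fos, Junb, Egr1 and Ier3 and reached no more than 0.93 on the log2 scale, so none was 2-fold. With chromosomes centred, calls over all genes moved to 1943 higher and 1647 lower, from 1851 and 2986. The third FAK-WT sample was the highest of its line for 8 of the 10 genes, against 34% of 11554 expressed genes, and the second FAK KO sample for 7, against 35.1% of 11559. The second β-catenin ΔGSK sample was likewise the highest of its line for 7 of the 10, against 23.7% of 11333. Without the third FAK-WT sample Egr1 was 0.51 (adjusted p = 0.0717) and Jund -0.010. Egr1 lost its call also without the second FAK-WT sample (0.83, adjusted p = 0.0712), the second FAK KO sample (0.77, adjusted p = 0.0929) or the third (0.67, adjusted p = 0.124), and with no filter on low values (adjusted p = 0.0885). Jun lost its call without the first FAK KO sample (0.29, adjusted p = 0.0739), without the third (0.39, adjusted p = 0.0714) and with no filter (adjusted p = 0.0504). Fosl2 passed without the first FAK-WT sample (0.50, adjusted p = 0.0329) and Atf3 without the second FAK KO sample (0.48, adjusted p = 0.04), and both passed in the fit over all 14 samples and with chromosomes centred.

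**Figure D2:**
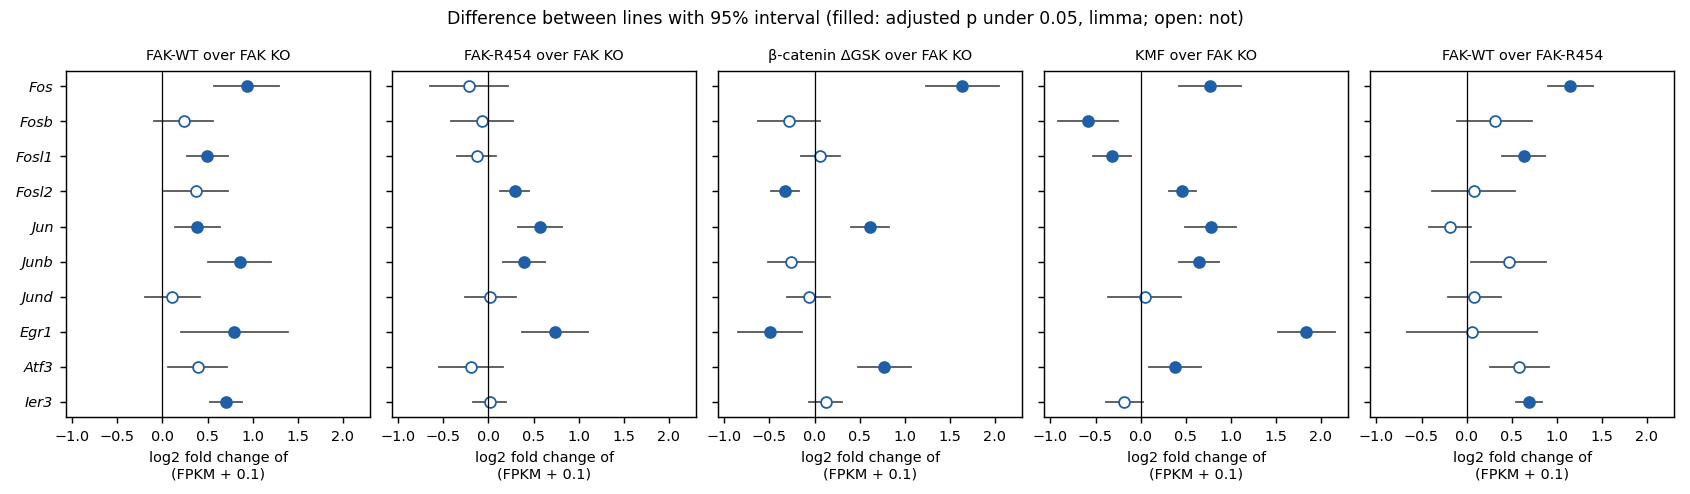
log2 fold change of (FPKM + 0.1) for the 10 genes in 5 comparisons of lines, with 95% intervals from limma; filled points have an adjusted p under 0.05. In FAK-WT over FAK KO all 10 points lie right of 0 and 6 are filled, and in β-catenin ΔGSK over FAK KO 3 filled points lie right of 0 and 2 left.

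The need for kinase activity was examined through FAK-R454. Against FAK KO, 4 members rose (Egr1, Jun, Junb and Fosl2) and 0 fell, beside 9.78% of 11818 genes higher and 9.89% lower, and the median change was 0.017 for the members and -0.028 for all genes. Every one of these 4 calls was lost when either FAK-R454 sample was left out, which leaves 1 sample assumed to vary like the FAK KO samples. Calls over all genes then also dropped, from 1156 higher and 1169 lower to 312 and 236 without the first and to 335 and 274 without the second. Without the first, the changes were 0.74 for Egr1 (adjusted p = 0.118), 0.62 for Jun (adjusted p = 0.0575), 0.38 for Junb (adjusted p = 0.193) and 0.29 for Fosl2 (adjusted p = 0.194), and without the second they were 0.74, 0.52, 0.40 and 0.29. Without the third FAK KO sample Junb was 0.37 (adjusted p = 0.0974) and Fosl2 0.24 (adjusted p = 0.107). Fewer members were called higher with no filter on low values and in the fit over all 14 samples, as counted in the closing section.

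Between FAK-WT and FAK-R454 directly, Fos, Ier3 and Fosl1 were higher in FAK-WT and 0 members were lower, beside 3.38% of 11782 genes higher and 4.44% lower. The median difference was 0.39 over the members and -0.045 over all genes. With chromosomes centred, 310 of all genes were higher and 212 lower, against 398 and 523 without centring. The 2 lines differ in the kinase mutation and also in Ptk2 transcript level, which was 0.52 lower on the log2 scale in FAK-WT (adjusted p = 0.0121). At the protein level, the paper's immunoblot found both forms of GFP-FAK expressed equally. Jun (-0.18, 95% interval -0.41 to 0.046), Junb (0.47, 0.052 to 0.88) and Fosl2 (0.081, -0.38 to 0.54) did not pass. Leaving out either FAK-R454 sample left 0 members called, where over all genes 4 were higher and 3 lower without the first and 4 and 4 without the second, with Fos at 1.10 or 1.21, Ier3 at 0.73 or 0.65 and Fosl1 at 0.58 or 0.69, and Fosl1 was also lost without the second FAK-WT sample (0.68, adjusted p = 0.0639). Without the third FAK-WT sample, when 1505 of all genes were higher and 1807 lower, Junb (0.29) and Atf3 (0.61) joined the higher members, Jun was lower (-0.27, adjusted p = 0.00335), and Egr1 turned to -0.23.

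Active β-catenin in the absence of FAK was compared with FAK KO. Fos, Atf3 and Jun rose and Fosl2 and Egr1 fell, 3 and 2 of the 10, where 23.7% of 11915 genes tested were higher and 34.4% lower. The members' median change was close to 0 (-0.0002), and that of all genes -0.089. The rise of Fos was the one member change of at least 2-fold. With chromosomes centred the 3 rises passed and the falls did not, and over all genes 3508 were then higher and 3178 lower, against 2828 and 4100. The Egr1 fall was also lost without the first FAK KO sample (-0.33, adjusted p = 0.0724) and without the third β-catenin ΔGSK sample (-0.42, adjusted p = 0.079). Without the first FAK KO sample, Junb (-0.34, adjusted p = 0.0391) and Jund (-0.20, adjusted p = 0.0478) were lower.

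Parental KMF cells were compared with the FAK KO clone. Egr1, Jun, Fos, Junb, Fosl2 and Atf3 were higher in KMF and Fosb and Fosl1 lower, 6 and 2 of the 10, beside 23.1% of 11893 genes higher and 28.7% lower. The median was 0.42 over the members and -0.045 over all genes. Only Egr1 differed by 2-fold or more. The Fosl1 call was lost without the second KMF sample (-0.32, adjusted p = 0.0501), the second FAK KO sample (-0.28, adjusted p = 0.0561) or the third (-0.27, adjusted p = 0.078). The Atf3 call was lost with no filter (adjusted p = 0.0711) and without the first KMF sample (0.36), the second KMF sample (0.36), the first FAK KO sample (0.39) or the third (0.28), and Ier3 was lower without the third KMF sample (-0.24, adjusted p = 0.0436) and with chromosomes centred (-0.39, adjusted p = 0.0066).

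The remaining pairs of lines show how far apart the members stand among the lines other than FAK KO. Between FAK-WT and KMF 5 of the 10 differed, Ier3, Fosb and Fosl1 being higher in FAK-WT and Egr1 and Jun lower, where 41.6% of all genes differed. β-catenin ΔGSK and KMF differed in 7 members, 4 higher and 3 lower in β-catenin ΔGSK (56.9% of all genes), and Egr1 was the most distant at -2.33. FAK-R454 and KMF differed in 6, 1 higher and 5 lower in FAK-R454 (43.6%). β-catenin ΔGSK and FAK-WT differed in 9, with Fos, Atf3 and Jun higher and Egr1 (-1.29), Junb (-1.12), Fosl2, Ier3, Fosb and Fosl1 lower in β-catenin ΔGSK (50.8%). For β-catenin ΔGSK and FAK-R454 the number was 5, Fos (1.86) and Atf3 (0.97) being higher and Egr1 (-1.23), Junb (-0.65) and Fosl2 (-0.62) lower in β-catenin ΔGSK (49%).

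Within the Fos family the share of each gene in the family's summed FPKM differed among lines. Fosl2 held from 59.4% ± 1.64 in β-catenin ΔGSK, its lowest share, through 66.7% ± 3.08 in FAK-WT, 69.1% ± 2.34 in FAK KO and 75.1% ± 1.07 in FAK-R454 to 78.0% ± 1.14 in KMF (SD, n = 3, n = 2 for FAK-R454). Fos held 9.42% ± 1.04 in β-catenin ΔGSK, against 2.05% ± 0.087 in FAK-R454 and 2.73% ± 0.501 in FAK KO. Fosl1 had its lowest share in KMF, 17.0% ± 1.17. FRA-2 transcripts thus made up the greater part of the Fos family in all 14 samples, whatever the level of Fos. In the Jun family the share of Jund was highest in FAK KO, 54.9% ± 1.78, and was 45.2% ± 1.41 in FAK-WT and 43.5% ± 3.73 in KMF. Junb held 24.9% ± 1.27 in FAK KO and 34.6% ± 2.35 in FAK-WT, and Jun had its highest share in β-catenin ΔGSK, 29.7% ± 1.01. These shares are a description and were not tested. The summed FPKM of the Jun family was 236 ± 32.5 in FAK KO and 310.0 ± 51.1 in FAK-WT (SD, n = 3 each).

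**Figure D3:**
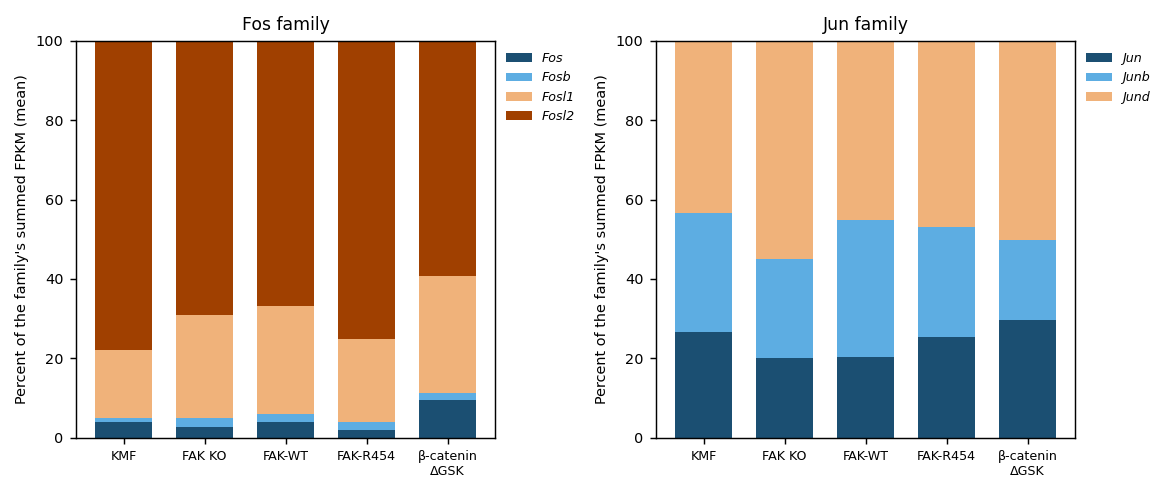
Mean percent of each family's summed FPKM held by its genes in the 5 lines (stacked bars from 0 to 100). Fosl2 is the largest part of the Fos family in every line, Fos is widest in β-catenin ΔGSK at 9.42%, and Jund is the largest part of the Jun family.

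Likeness between members was described across the 14 samples. On the log2(FPKM + 0.1) scale Pearson's r was 0.957 between Fos and Atf3, 0.918 between Fosl2 and Junb, 0.914 between Fosl2 and Egr1 and 0.877 between Fosl1 and Ier3, while it was -0.299 between Fos and Fosl2 and 0.008 between Fosl1 and Fosl2. The highest value with another member was 0.452 for Jun and 0.5 for Jund. The samples of a line share their origin, so these values describe mainly the order of the 5 lines and carry no test. Among 12246 other expressed genes, those most like Fos were Synm (r = 0.957), Ampd3 (0.943) and Slc16a13 (0.935), and those most like Atf3 were Rcc1 (0.922), Myc (0.919) and again Slc16a13 (0.915). Fosl2 was most like Htra1 (0.988), Tnfrsf23 (0.98) and Klhdc8a (0.979), and Junb most like Lynx1 (0.969), Mrgprf (0.963) and Cdk2ap1 (0.961). Egr1 followed Fbxl2 (0.976), Fnip2 (0.974) and Lamb3 (0.974), a laminin chain gene at 5.85 FPKM in KMF and 0.135 in FAK KO. Itgb3, the integrin β3 gene, was nearest to Fosl1 (0.905) and second nearest to Ier3 (0.911), after Faim2 (0.956), with 56.1 FPKM in FAK-WT and 40.8 in FAK KO. For Jun the nearest were Igsf8 (0.953), D8Ertd82e (0.937) and Cenpb (0.934), for Fosb Ssh3 (0.927), Myo9b (0.921) and Igfbp3 (0.902), and for Jund Mgat2 (0.925), Fbxw4 (0.905) and Cebpb (0.877).

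**Figure D4:**
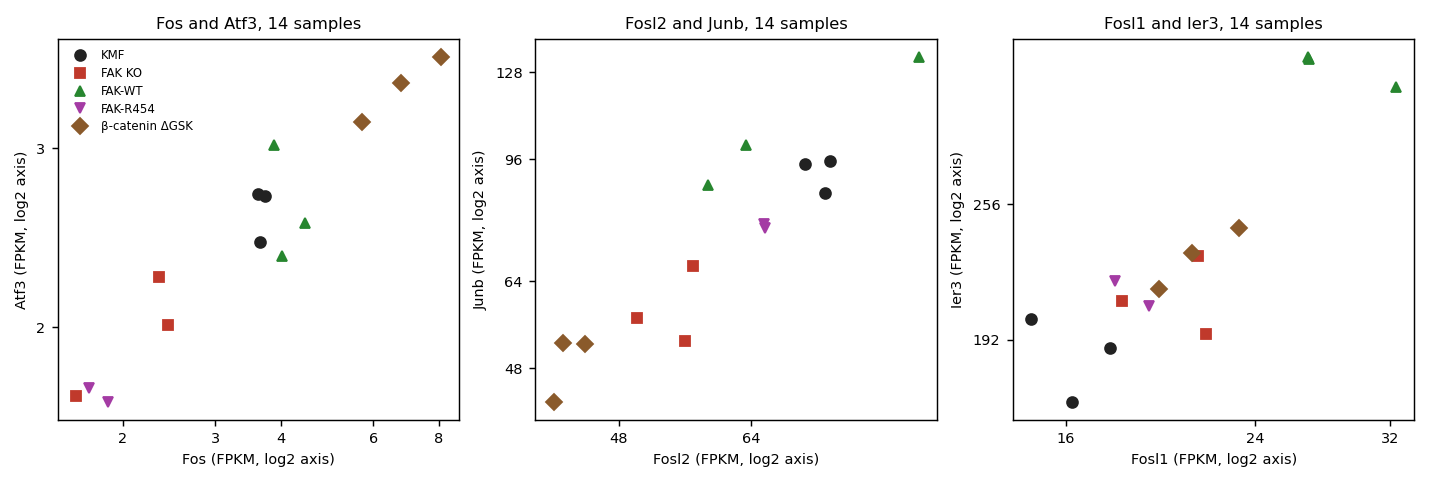
FPKM of 3 pairs of members in the 14 samples (log2 axes, 1 symbol per line). Fos and Atf3 rise together from FAK-R454 to β-catenin ΔGSK, Fosl2 and Junb are lowest in β-catenin ΔGSK, and for Fosl1 and Ier3 the FAK-WT samples stand apart at the upper right.

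A list of 48 other immediate early genes, of which 43 were tested in FAK-WT over FAK KO, had 21 higher and 2 lower, with a median of 0.24 against -0.076 over all genes, of which 15.6% were higher and 25.2% lower. The top rises were those of Gem (1.20), a small GTPase, Ctgf (1.13), a matricellular growth factor, Egr3 (1.09), a relative of Egr1, and Arc (0.89). Plk2 (-0.93), a polo-like kinase, and Gadd45a (-0.65), a DNA damage gene, fell. The count of higher genes was 12 without the first FAK KO sample and 18 with chromosomes centred, and that of lower genes was 4 without the third FAK-WT sample. In FAK-R454 over FAK KO 9 were higher and 2 lower (9.78% and 9.89% of all genes, median 0.15), led by Ctgf (1.13) and Gem (0.89). That count of higher genes was 3 with either FAK-R454 sample left out, 15 without the second FAK KO sample and 4 without the third. With no filter on low values it was 4. Over all genes the higher count went from 1156 to 1931 without the second FAK KO sample. It was 694 without the third and 853 with no filter. FAK-WT over FAK-R454 gave 7 higher and 0 lower (3.38% and 4.44% of all genes, median 0.074), among them Arc (0.89) and Gadd45g (0.61). The count was 0 with either FAK-R454 sample left out, 2 without the first and 1 without the second FAK-WT sample, and without the third 11 were higher and 10 lower.

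In β-catenin ΔGSK over FAK KO the same list split, with 18 of 42 higher and 11 lower (23.7% and 34.4% of all genes, median 0.069 against -0.089). Nr4a1 (1.15), an orphan nuclear receptor, Sgk1 (1.11), a kinase, and Srf (1.01), the serum response factor that drives Fos transcription, rose. Gadd45a (-3.91), Gem (-2.35), Ctgf (-1.19) and Ptgs2 (-0.86) fell. Gem and Ctgf thus had values of opposite sign for β-catenin ΔGSK and for FAK-WT, comparisons that share the FAK KO samples. KMF over FAK KO gave 13 higher and 8 lower (23.1% and 28.7% of all genes, median 0.16), with Nr4a1 (0.97) and Ctgf (0.96) among the higher and Dusp5 (-1.54), an ERK phosphatase, the lowest.

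**Figure D5:**
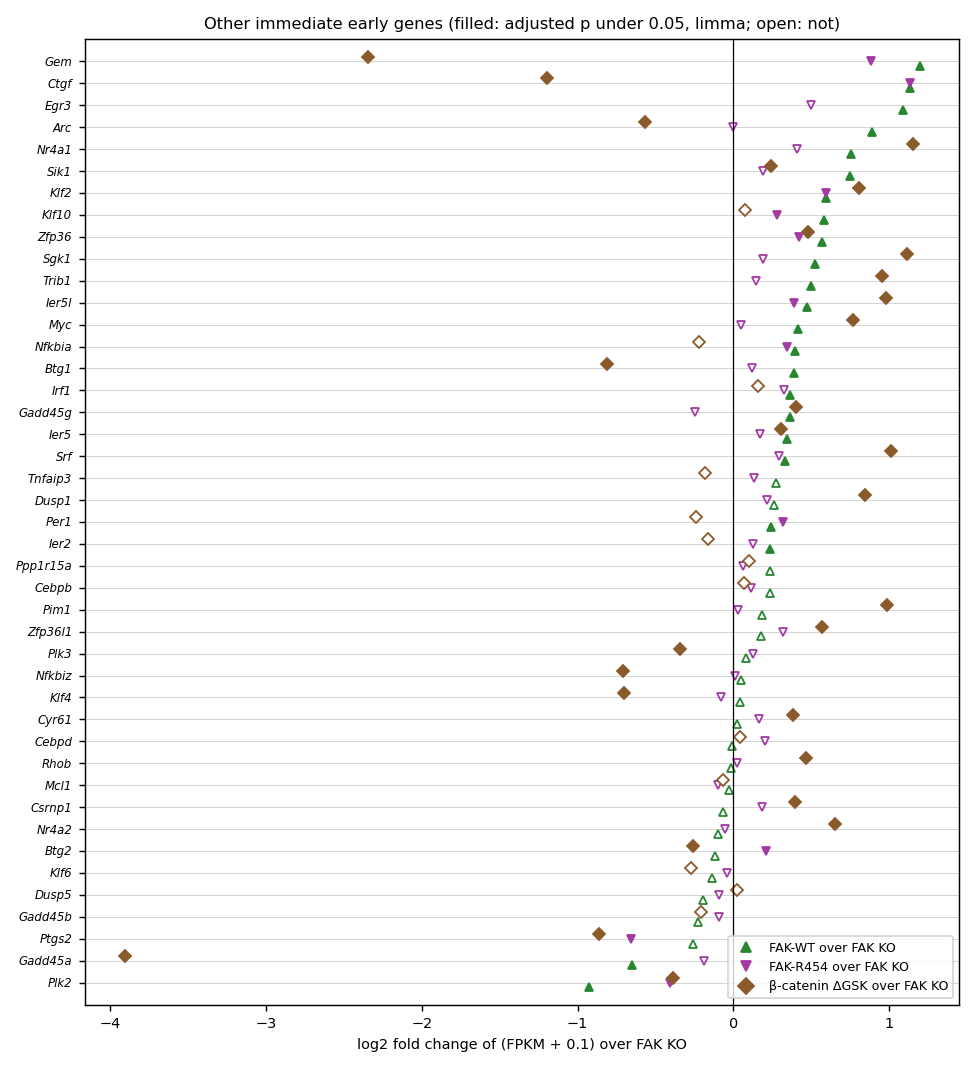
log2 fold change of (FPKM + 0.1) over FAK KO for the other immediate early genes tested, in β-catenin ΔGSK, FAK-WT and FAK-R454; filled symbols have an adjusted p under 0.05. For FAK-WT 21 filled symbols lie right of 0 and 2 left, and Gem, Ctgf and Gadd45a lie far left in β-catenin ΔGSK.

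Genes with AP-1 sites described in their promoters or enhancers, 30 in all and 24 tested, showed 12 higher and 1 lower in FAK-WT over FAK KO, with a median of 0.30, where 15.6% of all genes were higher and 25.2% lower. They included the angiogenic factor Vegfa (1.22), the keratin Krt18 (0.79), Hmox1 (0.68) and the metalloproteinase inhibitor Timp1 (0.60), and Nqo1 (-0.53) was the one that fell. Without the third FAK KO sample 8 were higher. FAK-R454 over FAK KO gave 3 higher and 4 lower, beside 9.78% and 9.89% of all genes. The lower count was 2 without the second FAK-R454 sample. The higher count was 0 with either FAK-R454 sample left out, and 6, 7 and 1 without the first, the second and the third FAK KO sample. FAK-WT over FAK-R454 gave 6 higher and 0 lower, beside 3.38% and 4.44% of all genes, including Krt18 (0.64), Areg (0.62) and the cyclin gene Ccnd1 (0.48). The latter count was 0 with either FAK-R454 sample left out, and 3, 1 and 15 without the first, the second and the third FAK-WT sample. Calls over all genes moved as well, to 4 higher and 3 lower without the first FAK-R454 sample and to 1505 and 1807 without the third FAK-WT sample. In β-catenin ΔGSK 13 fell and 4 rose over FAK KO (median -0.20, with 34.4% of all genes lower and 23.7% higher), with Spp1 (-4.18), Mmp13 (-3.37), Cxcl1 (-2.67) and Ccl2 (-2.47) the lowest and Cd44 (0.97) and Vegfa (0.96) the highest. In KMF over FAK KO 11 were higher and 9 lower, beside 23.1% and 28.7% of all genes, Vegfa (1.87) being the highest and the collagenase Mmp13 (-3.95) and Mmp10 (-3.02) the lowest.

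The list of other bZIP factors, of which some pair with Fos or Jun and others, such as Crem, with CREB proteins, held genes that moved in both directions. Of 21 listed and 16 tested, 4 were higher and 5 lower in FAK-WT over FAK KO (median 0.063), and 2 and 2 with chromosomes centred (median -0.062), Maf (0.73) having the top rise and Crem (-0.90) the deepest fall. The counts over FAK KO were 6 and 4 in KMF, 3 and 7 in β-catenin ΔGSK and 1 and 3 in FAK-R454, and 0 and 0 in FAK-WT over FAK-R454, where 5 higher and 1 lower were called without the third FAK-WT sample. The 3 lower in FAK-R454 became 0 with either FAK-R454 sample left out. The shares of all genes higher and lower to read these counts against are 15.6% and 25.2% in FAK-WT over FAK KO, 23.1% and 28.7% in KMF, 23.7% and 34.4% in β-catenin ΔGSK, 9.78% and 9.89% in FAK-R454 and 3.38% and 4.44% in FAK-WT over FAK-R454, and the same shares apply to the kinase and stress lists. In KMF the largest were Atf5 (1.63), Jdp2 (0.97) and Atf4 (0.93), factors of the amino acid and stress responses or of AP-1 repression. Kinases and factors upstream of AP-1, 30 listed, had 6 of 29 higher and 10 lower in FAK-WT over FAK KO (median -0.067), with the ternary complex factor Elk3 (0.73) and Mapk7 (0.54) up and the ribosomal S6 kinase Rps6ka2 (-1.43) down. Over FAK KO, Rps6ka2 changed by -1.60 in KMF and by 2.13 in β-catenin ΔGSK. The counts for that list were 7 higher and 11 lower in KMF, 10 and 7 in β-catenin ΔGSK and 7 and 3 in FAK-R454. In FAK-R454 they were 2 and 2 without the first FAK-R454 sample, 2 and 1 without the second, and 7 were lower without the second FAK KO sample. The lower count in FAK-WT was 5 without the third FAK KO sample, 6 without the second FAK-WT sample and 6 with chromosomes centred. That in KMF was 6 without the first KMF sample and 6 with chromosomes centred. With a replicate block the lower count in β-catenin ΔGSK was 11, where that over all genes went from 4100 to 4823. FAK-WT over FAK-R454 gave 0 higher and 1 lower in this list, Ptk2b (-0.56). These are transcript levels, and kinase activity was not measured in these files.

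Heat shock and stress genes were counted as a sign of handling or stress, since they are induced with the immediate early genes. Of 12 listed and 11 tested, 3 were higher and 2 lower in KMF over FAK KO, 2 and 3 in β-catenin ΔGSK, 1 and 3 in FAK-R454 and 1 and 3 in FAK-WT, with medians of -0.027, -0.016, -0.17 and -0.096, the last of which was 0.020 with chromosomes centred. Without the third FAK KO sample the lower counts in FAK-WT and FAK-R454 were 0, and with either FAK-R454 sample left out 0 genes were called in FAK-R454. The lower count was also 0 in FAK-WT with chromosomes centred and in FAK-R454 with no filter on low values. Over all genes, leaving out the second FAK KO sample gave 1931 higher and 2459 lower in FAK-R454, from 1156 and 1169. In FAK-WT it gave 1917 and 3248, from 1851 and 2986. In this list 2 were then higher and 6 lower in FAK-R454, and 2 and 4 in FAK-WT. These counts of 11 are small and lie beside 23.1% higher and 28.7% lower over all genes in KMF and 23.7% and 34.4% in β-catenin ΔGSK. The inducible chaperone Hspa1b changed by 0.95 in KMF, 0.56 in FAK-R454 and 1.04 in FAK-WT over FAK KO, while its value of -0.14 in β-catenin ΔGSK did not pass, and the part of stress in the members' values was not tested.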

How the data were processed

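Poly(A)-selected RNA came from 14 tumorsphere samples of 5 lines, which the labels number as replicates. It was sequenced as paired reads on an Illumina instrument after library preparation with the NEBNext Ultra RNA kit. Per the methods the KMF samples were taken at different passages, and for the other lines nothing says that the replicates came from separate cultures, so p-values measure the spread between these samples, which may be partly technical. The authors deposited 1 table of FPKM values for 35275 genes, which holds no comparisons of their own. The paper's methods name TopHat2 as the aligner, while the submitters' processing notes list STAR 2.5, CASAVA 1.8, DESeq2 and the build mm10. Of 34490 gene IDs shared with GENCODE M21, 34473 had the same chromosome and 72.2% the same start and end, so coordinates are those of GRCm38. FPKM multiplied by gene length and divided by each library's smallest step gave whole fragments for 100% of values (tolerance 0.01), from which depth was read.

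Groups came from the genotype labels. The 10 genes and the gene lists were chosen with earlier results of these data known. Each pair of lines was compared with limma 3.58.1 in R 4.3.3 (linear model with a trended prior, two-sided) on log2(FPKM + 0.1) over genes with a mean FPKM above 1 in at least 1 of the 2 lines, and p-values were adjusted by Benjamini-Hochberg over all genes tested, with a threshold of 0.05. The test was checked on simulated data. All 10 genes, Ptk2, at most 4 genes per direction and list with the largest change among those that passed, and the 3 genes most correlated with each member were named. The alternatives were pseudocounts of 1 and 0.01, no filter, a fold change of at least 2, a replicate block, 1 fit over all 14 samples, voom on fragments, centring on chromosome medians, and leaving out each sample in turn. No 2 samples of a line had more than 0.245% identical values.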

Additional observations from a re-analysis of the deposited data

How the results depend on the processing

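The direction of a member's change was kept in 660 of 680 combinations of member, main comparison and alternative, and the call as well in 570. Part of the 680 could not change sign. The fold change threshold and the fit over all 14 samples leave the fold changes as they are. So does the replicate block in the comparisons without FAK-R454. The count of kept directions is therefore no test of direction for these alternatives. The 20 changes of sign all concern members whose main value did not pass. Leaving out 1 sample, Jund ranged from -0.020 to 0.19 in FAK-WT over FAK KO, -0.11 to 0.11 in FAK-R454, -0.20 to 0.019 in β-catenin ΔGSK, -0.083 to 0.26 in KMF and -0.032 to 0.16 in FAK-WT over FAK-R454. Over FAK KO, Fosb ranged from -0.20 to 0.054 and Ier3 from -0.045 to 0.075 in FAK-R454, and Fosl1 from -0.015 to 0.12 in β-catenin ΔGSK. In FAK-WT over FAK-R454 Fosl2 ranged from -0.12 to 0.21 and Egr1 from -0.23 to 0.32. With chromosomes centred, Jund was -0.035 in KMF.

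Counts of called members changed as follows. Asking for a change of at least 2-fold left 0 higher of 6 in FAK-WT, 0 of 4 in FAK-R454, 1 of 3 higher and 0 of 2 lower in β-catenin ΔGSK, 1 of 6 higher and 0 of 2 lower in KMF, and 1 of 3 in FAK-WT over FAK-R454. With no filter, 1 member was higher in FAK-R454 and 1 lower in β-catenin ΔGSK. The fit over all 14 samples gave 2 higher in FAK-R454 and 1 lower in β-catenin ΔGSK, and centring left 0 lower in β-catenin ΔGSK. Leaving out 1 sample gave 0 to 4 higher in FAK-R454 over FAK KO, 1 to 3 lower in β-catenin ΔGSK over FAK KO, 1 to 3 lower in KMF over FAK KO, 0 to 5 higher in FAK-WT over FAK-R454 and 0 to 1 lower in FAK-WT over FAK-R454. Pseudocounts and voom on fragments moved no count by more than 1.5 times, and the cause of the other shifts was not tested.

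The sample numbers recur in every line, but the correlation of same-numbered deviations exceeded 0.1 in every pair of no comparison. At most 4 of 6 samples correlated best with their own number. In β-catenin ΔGSK over FAK KO the correlations were 0.445, 0.28 and 0.076 for samples 1, 2 and 3, with 4 of 6 best matches. The main fits used no pairing, and a batch shared by same-numbered samples of these lines was not tested. With a replicate block, which drops the third sample where FAK-R454 is compared, 5 members were higher and 1 lower in FAK-WT over FAK-R454 (1577 and 1847 of all genes, from 398 and 523), Fosl2 was -0.12, Jund -0.032 and Egr1 -0.23 there, and Ier3 was -0.045 in FAK-R454 over FAK KO. In the other 4 comparisons the block moved no count of called members by more than 1.5 times. Depth limits Fos, Fosb and Atf3 most, which had as few as 95 fragments in a sample.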
